A study of Mus musculus with 28 samples.

Results

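MC38 cells given TNF and interferon gamma (IFNG) together were compared with untreated MC38 cells across all genes of the in vitro expression table. The comparison takes 4 of the 28 samples of the series, 2 libraries of each group, chosen by their labels, and it covers 12720 genes. MC38 is a mouse colon adenocarcinoma line of C57BL/6 origin, grown here in DMEM with fetal calf serum and antibiotics. The treated cells received both cytokines for 6 hours, and the labels record no time or added agent for the untreated cells. The labels name no genetic change in either group and give no cytokine doses. The same table holds 2 libraries each of cells given TNF alone for 6 hours, IFNG alone for 6 hours, or co-culture supernatant. These entered the model so that all 10 libraries share an estimate of the spread, and cells given 1 cytokine are set beside the treated cells where a gene is described. Nothing in the labels says whether the replicates are separate cultures. A p-value here rests on the spread between the 2 libraries of a group, pooled over all groups, and this spread could be technical.

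TNF binds receptors on the cell surface and, through adaptor proteins and ubiquitin chains, releases NF-kB transcription factors from their IkB inhibitors. NF-kB then turns on chemokines, adhesion molecules, survival genes and the IkB genes themselves, which close the loop. IFNG acts through JAK kinases and STAT transcription factors, which bind a DNA element called GAS and induce IRF1, a second factor that binds interferon-stimulated response elements (ISRE). Between them these factors drive antigen presentation, the T cell chemokines that bind CXCR3, and GTPases that attack the vacuoles of intracellular pathogens.

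Values are log2 CPM, that is, log2 of reads per gene at a fixed library total, normalized by the authors. Only transcript 3' ends were sequenced, so long transcripts do not gain reads by their length. By the low values of each column, the untreated libraries held about 6490000 and 7690000 assigned reads and the TNF + IFNG libraries 7150000 and 3360000. The second TNF + IFNG library was the shallowest of the 10, and the first IFNG library, with 11200000, the deepest. The median standard deviation (SD) of a gene between the 2 libraries was 0.262 with TNF + IFNG, 0.15 in untreated cells and 0.118 with IFNG alone, in log2 units. The colon adenocarcinoma label was set against marker genes: the table held 1 of 12 colon epithelial markers, Cdh1, at -0.52 and 1.06 in untreated cells, and 9 of 14 mesenchymal markers. Vim stood at 10.36 and 10.43, the fibronectin gene Fn1 at 6.39 and 6.41 and the N-cadherin gene Cdh2 at 6.10 and 5.89 in untreated cells. Among the mesenchymal markers 1 rose with TNF + IFNG, Zeb1, and 3 fell, Col3a1, Twist1 and Pdgfrb. The shares over all genes were 4.77% for rises and 4.25% for falls. Zeb1 was lost without the second untreated library (adjusted p = 0.069), and the 3 falls were each lost without either untreated library and some others (adjusted p up to 0.233, 0.2 and 0.164). Of markers of other cells, 1 of 16 for T cells (Lck), 3 of 12 for macrophages (Lyz2, Cd14, Cd68) and 0 of 5 for B cells had an entry. In the 4 compared libraries these 4 genes lay between -1.80 (Cd68) and 2.34 (Lck). None of them passed the test between the groups, where 9.02% of all genes did.

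TNF + IFNG raised 607 genes and lowered 540 at an adjusted p under 0.05 (limma, Benjamini-Hochberg over all genes), which is 4.77% and 4.25% of the genes tested (9.02% together). Centring the libraries on ribosomal protein genes shifted the median of all genes from 0.017 to 0.134 in log2 and changed this split to 652 higher and 317 lower. At least 2-fold changes made up 335 of the rises (2.63%) and 288 of the falls (2.26%). Leaving out each of the 10 libraries in turn gave 10 further fits. In all of them 63 rises (0.495% of genes tested) and 3 falls (0.0236%) kept passing, and these 66 are called stable here. Stable rises ran from 1.25 to 6.88 in log2, with a median of 2.64.

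**Figure D1:**
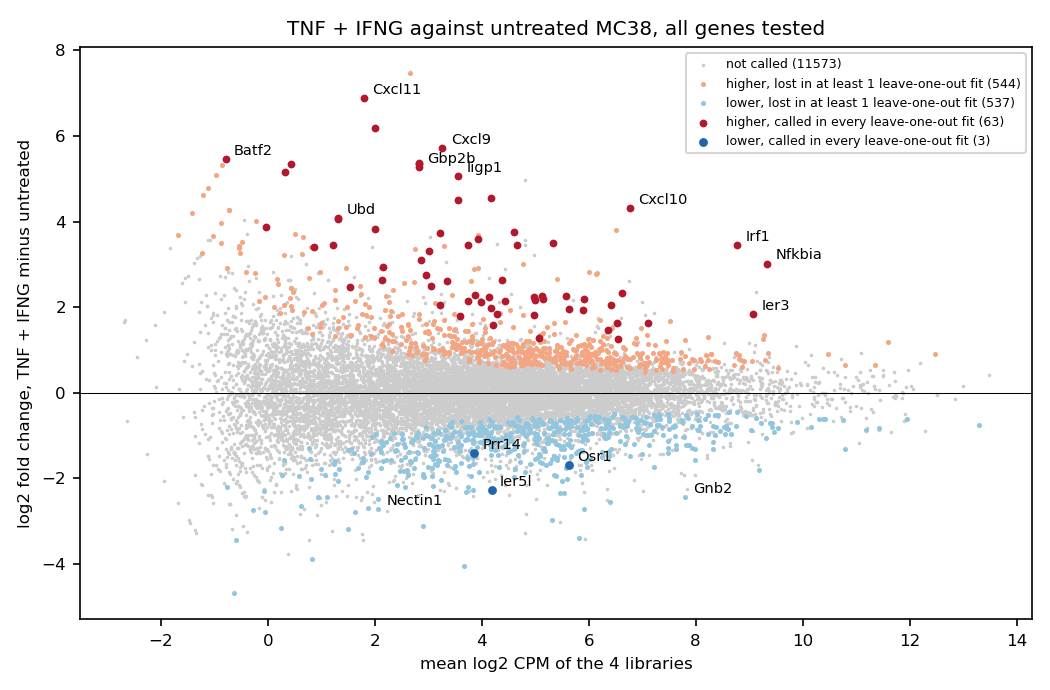
Log2 fold change of TNF + IFNG over untreated (y axis) against the mean log2 CPM of the 4 libraries (x axis), 1 point per gene. Dark red and dark blue points are the 63 stable rises and 3 stable falls, pale points the other 544 rises and 537 falls, and grey points the genes that did not pass.

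The remaining calls did not pass in every fit. Without untreated library 1, 121 genes passed, 111 of them among the 1147, and without untreated library 2, 88 passed, 79 of them among the 1147. Without the first TNF + IFNG library 1069 genes passed (495 higher, 574 lower), of which 588 were among the 1147. Without the second 307 passed, 244 of them among the 1147. With an IFNG library dropped, 267 (library 1) or 272 (library 2) genes passed, and with a TNF library dropped, 546 or 550. Dropping a supernatant library raised the count to 2155 or 2152. Of the 540 falls, 21 still passed when untreated library 1 was dropped and 6 when untreated library 2 was. No called gene changed direction in any of the 10 fits, an outcome fixed in advance. The untreated and TNF + IFNG libraries did not overlap in any called gene, and dropping a library of another group leaves the fold unchanged.

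The promoter sequences below are examples from stable rises with letter matches to DNA elements of both pathways, which not all stable rises had. They are the 250 bases before the first listed transcription start, 5' to 3' in the direction of the gene, from RefSeq on GRCm38.p6. Capitals mark matches on either strand to the GAS letters TTCNNNGAA, the ISRE core (GAAA, any 2 bases, GAAA) or the NF-kB core (GGGA, any 2 bases, TTCC). The first 2 examples carry a GAS match (Irf1) or GAS and ISRE matches side by side (Igtp), the third an ISRE match (Gbp2), the fourth an ISRE and an NF-kB match (Cxcl10) and the last an NF-kB match (Nfkbia).
Irf1: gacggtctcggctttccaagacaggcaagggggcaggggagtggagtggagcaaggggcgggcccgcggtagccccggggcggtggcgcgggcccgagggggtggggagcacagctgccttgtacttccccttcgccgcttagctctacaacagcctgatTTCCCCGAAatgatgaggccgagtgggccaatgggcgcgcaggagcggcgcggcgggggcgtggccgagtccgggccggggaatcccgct
Igtp: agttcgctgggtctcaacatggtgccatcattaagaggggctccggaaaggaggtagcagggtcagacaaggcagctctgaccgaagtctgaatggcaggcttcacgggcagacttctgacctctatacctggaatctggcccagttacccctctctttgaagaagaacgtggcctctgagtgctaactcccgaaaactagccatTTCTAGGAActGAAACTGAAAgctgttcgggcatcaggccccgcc
Gbp2: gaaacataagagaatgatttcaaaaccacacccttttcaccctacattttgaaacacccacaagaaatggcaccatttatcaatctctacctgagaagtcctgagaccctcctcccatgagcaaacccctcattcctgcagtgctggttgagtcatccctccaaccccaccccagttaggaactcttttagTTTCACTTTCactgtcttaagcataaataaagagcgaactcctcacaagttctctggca
Cxcl10: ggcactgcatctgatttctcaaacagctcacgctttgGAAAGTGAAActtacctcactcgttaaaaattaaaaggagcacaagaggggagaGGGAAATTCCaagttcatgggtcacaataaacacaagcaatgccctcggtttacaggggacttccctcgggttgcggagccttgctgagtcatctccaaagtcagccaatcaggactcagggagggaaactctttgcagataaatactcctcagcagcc
Nfkbia: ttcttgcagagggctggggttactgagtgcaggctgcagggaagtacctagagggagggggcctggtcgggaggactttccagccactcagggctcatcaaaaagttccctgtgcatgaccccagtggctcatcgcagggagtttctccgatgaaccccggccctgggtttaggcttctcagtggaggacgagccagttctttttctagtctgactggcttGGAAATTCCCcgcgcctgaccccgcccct
The windows are chr11:53769764-53770013 for Irf1 and chr11:58199306-58199555 for Igtp on the plus strand, and chr3:142620413-142620662 for Gbp2, also on the plus strand. Those of Cxcl10, chr5:92348890-92349139, and Nfkbia, chr12:55492648-55492897, lie on the minus strand. The GAS match of Irf1 begins 90 bases before the start, the GAS and ISRE matches of Igtp 45 and 34 bases before it and the ISRE match of Gbp2 59 bases before it. In Cxcl10 the ISRE match begins 213 bases before the start and the NF-kB match 159 bases before it, and in Nfkbia the NF-kB match begins 29 bases before it.

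A promoter was listed for 8646 of the 12720 genes and 44 of the 63 stable rises. The ISRE core was present in 43.2% of the stable rises with a promoter (19 of 44), 9.2% of all rises, 2.14% of falls and 2.68% of all genes. GAS letters were present in 22.7% of stable rises (10 of 44), 9.91% of all rises, 6.18% of falls and 5.79% of all genes. Some of these promoters are not independent of each other. The GAS and ISRE matches of Igtp, Irgm2, Tgtp1 and Tgtp2 lie in nearly the same letters, as do the ISRE matches of Ifi205 and Ifi211. The NF-kB core was present in 6.82% of stable rises (3 of 44), 2.59% of all rises, 1.19% of falls and 1.23% of all genes. Its letters are 1 form of the NF-kB site, and other forms were not counted. The share of promoters with any NF-kB site is therefore not given, and shares of different motifs cannot be set against each other. Many stable rises with a promoter had no match to any of these motifs, among them Cxcl9, Nfkbie, Tap1, Cd274, Irf9 and Ubd. GAS and ISRE letters can overlap, and a match is a description of the letters only.

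Of 12 interferon regulatory factors and partners tested 4 rose, 1 fell and 7 did not pass. Of all genes 4.77% rose and 4.25% fell. Irf1 stood at 7.04 and 7.07 in untreated cells and at 10.47 and 10.53 with TNF + IFNG, a 10.87-fold rise (log2 fold change 3.44 ± 0.12, standard error (SE), n = 2 per group, adjusted p = 7.04e-06). This and every later SE come from the model's spread pooled over all groups, not from the compared libraries alone. Both treated libraries were far above both untreated ones. Irf1 was at 9.60 and 9.44 with TNF alone and at 10.08 and 10.15 with IFNG alone. Stat2 and Irf9, members of the ISGF3 complex of the type I interferon response, rose by 2.29 ± 0.18 and 1.96 ± 0.16 (adjusted p = 0.000343 for each). Irf9 stood at 4.54 and 4.78 untreated, 4.71 and 4.66 with TNF alone, 6.51 and 6.44 with IFNG alone and 6.61 and 6.63 with both. Both TNF libraries lay within the range of the untreated ones. Rnf31 overlaps Irf9 on the same strand, and reads of overlapping genes may not have been told apart.

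Batf2, a basic leucine zipper partner of IRF1, lay on the lowest value steps in untreated cells, at -3.44 and -3.60, and at 2.34 and 1.55 with TNF + IFNG. Its fitted change was 5.46 ± 0.53 (adjusted p = 0.0012), a size that depends on the values given to near-absent reads. Irf2, a related factor that can compete with IRF1 for its sites, rose from 4.43 and 4.42 to 5.69 and 5.71 (1.28 ± 0.16, adjusted p = 0.00435). The 4 rises of this list, Irf1, Irf9, Batf2 and Irf2, were stable. Its fall was Irf2bp2, a repressor that binds IRF2 (-1.27 ± 0.17, adjusted p = 0.00802). Irf7 stood at 0.66 and 0.99 and at 2.38 and 1.38 (adjusted p = 0.131). In the IFNG receptor and STAT pathway Stat3 (0.91 ± 0.16, adjusted p = 0.0183) and Jak2 (0.65 ± 0.16, adjusted p = 0.0461) also rose. Irf2bp2 was lost without the second untreated library (adjusted p = 0.0893) and Stat3 without either untreated library (up to 0.0997). Jak2 was lost without either untreated, TNF or IFNG library or the second TNF + IFNG library (up to 0.234). The receptor gene Ifngr1 stood at 5.58 and 5.41 untreated and at 6.17 and 5.05 treated, groups that overlap.

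Of 18 IkB genes and NF-kB subunits 9 rose, 1 fell and 8 did not pass, where 4.77% of all genes rose and 4.25% fell. Nfkbia, the gene of IkB-alpha, stood at 7.87 and 7.79 untreated, 11.01 and 10.69 with TNF + IFNG, 11.28 and 11.18 with TNF alone and 7.73 and 7.63 with IFNG alone. The groups of untreated and treated libraries lay 3.02 ± 0.14 apart in log2 (adjusted p = 1.34e-05). Nfkbie, the gene of IkB-epsilon, rose from 1.63 and 1.06 to 5.09 and 5.09 (3.74 ± 0.27, adjusted p = 0.000205). Tnip1, which encodes a ubiquitin-binding partner of A20 that damps TNF signalling, rose from 3.90 and 3.93 to 5.96 and 6.18 (2.16 ± 0.24, adjusted p = 0.00238). Ier3, a TNF-inducible survival gene, rose from 8.14 and 8.18 to 10.06 and 9.93 (1.83 ± 0.14, adjusted p = 0.000244), and Gadd45b, a stress gene that restrains JNK signalling, by 1.78 ± 0.23 (adjusted p = 0.00622).

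The list of IkB genes and NF-kB subunits had a median of 0.79 against 0.017 over all genes. Of its 9 rises, Nfkbia and Nfkbie were stable. The fall was Chuk, the gene of the kinase IKK-alpha (-0.81 ± 0.20, adjusted p = 0.0448), named after its values were seen and lost without any 1 library of the untreated and cytokine groups (up to 0.235). Bcl3, an atypical IkB protein that works in the nucleus, rose from 2.58 and 2.41 to 5.63 and 4.59 (2.61 ± 0.39, adjusted p = 0.0118). The subunit genes Rel (1.67 ± 0.35, adjusted p = 0.03) and Relb (0.98 ± 0.17, adjusted p = 0.0201) rose as well. Bcl3 and Relb were lost without either untreated library (adjusted p up to 0.103 and 0.102), and Rel also without either IFNG or the first TNF + IFNG library (up to 0.192). The list had 2 rises when untreated library 1 was dropped and 3 for untreated library 2, against 7 and 6 for TNF + IFNG libraries 1 and 2. Birc3, a ubiquitin ligase of the TNF receptor complex, rose from 1.89 and 1.56 to 3.15 and 3.37 (1.54 ± 0.26, adjusted p = 0.0162), but was lost without either untreated library or the second TNF + IFNG library (up to 0.133). Tnfaip3, the gene of A20, varied between the untreated libraries, at -1.30 and 0.39, and stood at 1.70 and 2.97 with TNF + IFNG (adjusted p = 0.0706).

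**Figure D2:**
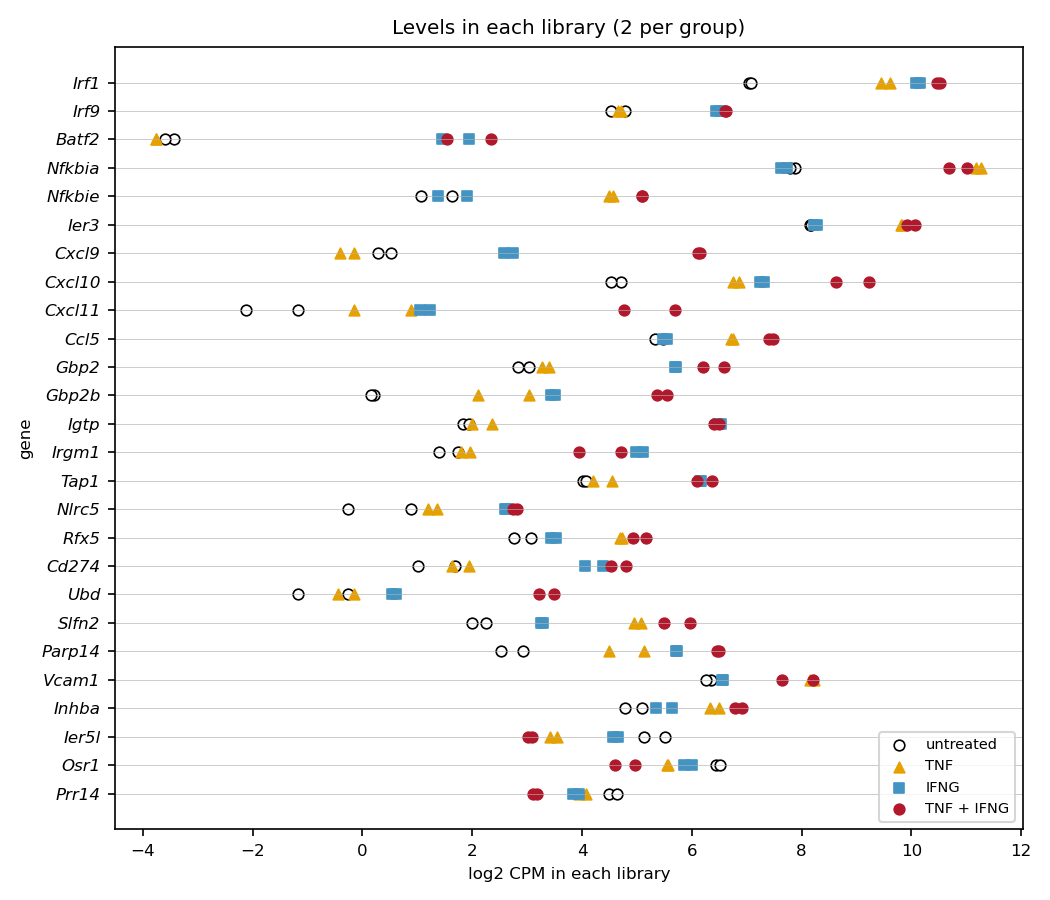
Log2 CPM (x axis) of 26 genes (y axis) in each library of the untreated, TNF, IFNG and TNF + IFNG groups, 2 points per group. Igtp and Tap1 lie with the IFNG libraries, Nfkbia, Nfkbie and Ier3 near the TNF libraries, and Cxcl9 and Cxcl11 stand to the right of both.

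All 3 chemokines that attract T cells through CXCR3 rose, where 4.77% of all genes did. Cxcl9 stood at 0.52 and 0.28 untreated, -0.40 and -0.16 with TNF, 2.58 and 2.74 with IFNG and 6.15 and 6.11 with both. Cxcl10 stood at 4.71 and 4.53 untreated, 6.85 and 6.75 with TNF, 7.25 and 7.31 with IFNG and 8.63 and 9.22 with both. Cxcl11 stood at -2.12 and -1.18 untreated, -0.16 and 0.89 with TNF, 1.05 and 1.23 with IFNG and 5.69 and 4.77 with both. In each gene the 2 TNF + IFNG libraries were the highest of these 8. The folds over untreated were 5.73 ± 0.23, 4.31 ± 0.26 and 6.88 ± 0.48 in log2 (adjusted p = 1.09e-05, 6.63e-05 and 0.000169). The annotation classes Cxcl11 as a polymorphic pseudogene.

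Chemokines for monocytes and neutrophils rose in part. Ccl5, which attracts T cells and monocytes, rose from 5.47 and 5.33 to 7.48 and 7.41 (2.04 ± 0.16, adjusted p = 0.000343) and was stable. Ccl2 stood at 6.43 and 6.92 untreated and 7.99 and 8.70 with both, but at 10.18 and 9.62 with TNF alone and 5.64 and 5.30 with IFNG alone. Its rise over untreated was 1.67 ± 0.43 (adjusted p = 0.0468), and the difference of -1.56 from TNF alone did not pass (adjusted p = 0.183). The neutrophil chemokine Cxcl1 rose from 3.96 and 4.20 to 6.12 and 7.33 (2.65 ± 0.52, adjusted p = 0.0266). In all, 4 of 6 myeloid chemokines rose (median 1.64), where 4.77% of all genes did. The fourth was Ccl7 (1.61 ± 0.42, adjusted p = 0.0482). Ccl2 was lost without any 1 of the untreated, TNF, IFNG or TNF + IFNG libraries (adjusted p up to 0.182). Cxcl1 was lost without either untreated or IFNG library or the second TNF + IFNG library (up to 0.153), and Ccl7 without any untreated, TNF or TNF + IFNG library (up to 0.216).

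The interferon-inducible GTPases rose as families. All 11 immunity-related GTPases tested rose, with a median of 4.56, and 9 were stable. The shares over all genes were 4.77% for rises and 0.495% for stable rises. Iigp1, which disrupts parasite vacuoles, stood at 1.01 and 1.06 untreated and at 5.99 and 6.19 with both (5.06 ± 0.36, adjusted p = 0.000169). With TNF alone it stood at -1.30 and 0.01, and with IFNG alone at 6.48 and 6.43. Igtp rose from 1.83 and 1.94 to 6.49 and 6.40 (4.56 ± 0.19, adjusted p = 1.1e-05) and the regulatory family member Irgm1 from 1.40 and 1.74 to 4.70 and 3.95 (2.76 ± 0.26, adjusted p = 0.00102). Tgtp1 and Tgtp2, near-identical copies, rose by 5.37 ± 0.24 and 5.35 ± 0.24, and reads may have been divided between them. Irgm2 overlaps Igtp, and Ifi47 overlaps Olfr56, so their values (4.49 ± 0.44, and 2.95 ± 0.27 for Ifi47 and 5.34 ± 0.46 for Olfr56) are uncertain in the same way. Both untreated libraries of Olfr56 and of the pseudogene Gm12250 lay on the lowest 3 value steps.

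Of 9 guanylate binding proteins, GTPases that coat bacteria and parasite vacuoles, 7 rose and 5 were stable, with a median of 3.46. Rises made up 4.77% of all genes and stable rises 0.495%. Gbp2 rose from 2.83 and 3.04 to 6.21 and 6.58 (3.46 ± 0.17, adjusted p = 2.07e-05). Gbp7 rose from 3.61 and 3.55 to 7.07 and 7.10 (3.51 ± 0.16, adjusted p = 1.1e-05). Gbp2b stood at 0.21 and 0.16 untreated, 2.10 and 3.04 with TNF, 3.44 and 3.51 with IFNG and 5.55 and 5.37 with both (5.28 ± 0.32, adjusted p = 6.51e-05). Both treated libraries were the highest of these 8 for Gbp2b. Gbp4 rose by 3.84 ± 0.36 (adjusted p = 0.00102), and its annotation overlaps that of Gbp8 and Gbp9.

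Antigen presentation genes did not move together. Tap1, a subunit of the pump that carries peptides to MHC class I, rose from 4.01 and 4.08 to 6.37 and 6.09 (2.18 ± 0.16, adjusted p = 0.000241). Tapbpl, a peptide editor related to tapasin, rose from 3.33 and 3.39 to 5.10 and 5.31 (1.85 ± 0.19, adjusted p = 0.00194). Nlrc5, the transactivator of MHC class I genes, rose from 0.89 and -0.27 to 2.81 and 2.74 (2.47 ± 0.37, adjusted p = 0.0118). With only the compared groups fitted, Nlrc5 did not pass (adjusted p = 0.0653). These 3 were stable, and Tapbp, the tapasin gene, rose by 1.51 ± 0.28 (adjusted p = 0.0227) but was lost without either untreated or the second TNF + IFNG library (up to 0.105). Tap2, the partner of Tap1, stood at 5.14 and 5.88 untreated and at 2.72 and 3.98 treated (adjusted p = 0.0919). The peptide loading list as a whole had 4 rises among 14 genes and a median of 0.19, where 4.77% of all genes rose.

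None of 15 MHC class I chain genes passed in either direction, with a median of -0.32, where 9.02% of all genes passed. A list of 15 genes is too small to set apart from that share. H2-K1 stood at 8.77 and 8.89 untreated and at 8.81 and 7.97 treated, and H2-D1 at 8.52 and 8.53 and at 7.88 and 8.53. B2m, the light chain common to these molecules, stood at 7.97 and 8.20 and at 7.74 and 7.60 (log2 difference -0.41 ± 0.15, adjusted p = 0.0998). Groups overlapped for H2-K1 and H2-D1, and B2m was lower in both treated libraries without passing. Of 9 immunoproteasome genes 2 rose, where 4.77% of all genes did. Psmb9 went from 3.24 and 3.48 to 4.56 and 4.99 (1.41 ± 0.22, adjusted p = 0.0132) and Psmb10 rose by 1.04 ± 0.16 (adjusted p = 0.0132). Psme4, a proteasome activator gene, fell by 0.71 (SE 0.14, adjusted p = 0.0248), lost without either untreated or IFNG library or the second TNF + IFNG library (up to 0.156). The third catalytic subunit, Psmb8, stood at 5.75 and 5.76 and at 5.03 and 5.71 (adjusted p = 0.456). Psmb9 was lost without either untreated or the second TNF + IFNG library (up to 0.0827) and Psmb10 without the second untreated library (0.123). Rfx5, which encodes a subunit of the RFX complex on MHC promoters, was named after its values were seen. It rose from 2.76 and 3.08 to 5.16 and 4.94 (2.13 ± 0.18, adjusted p = 0.000423), with 4.74 and 4.70 in cells given TNF alone and 3.52 and 3.44 with IFNG alone.

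**Figure D3:**
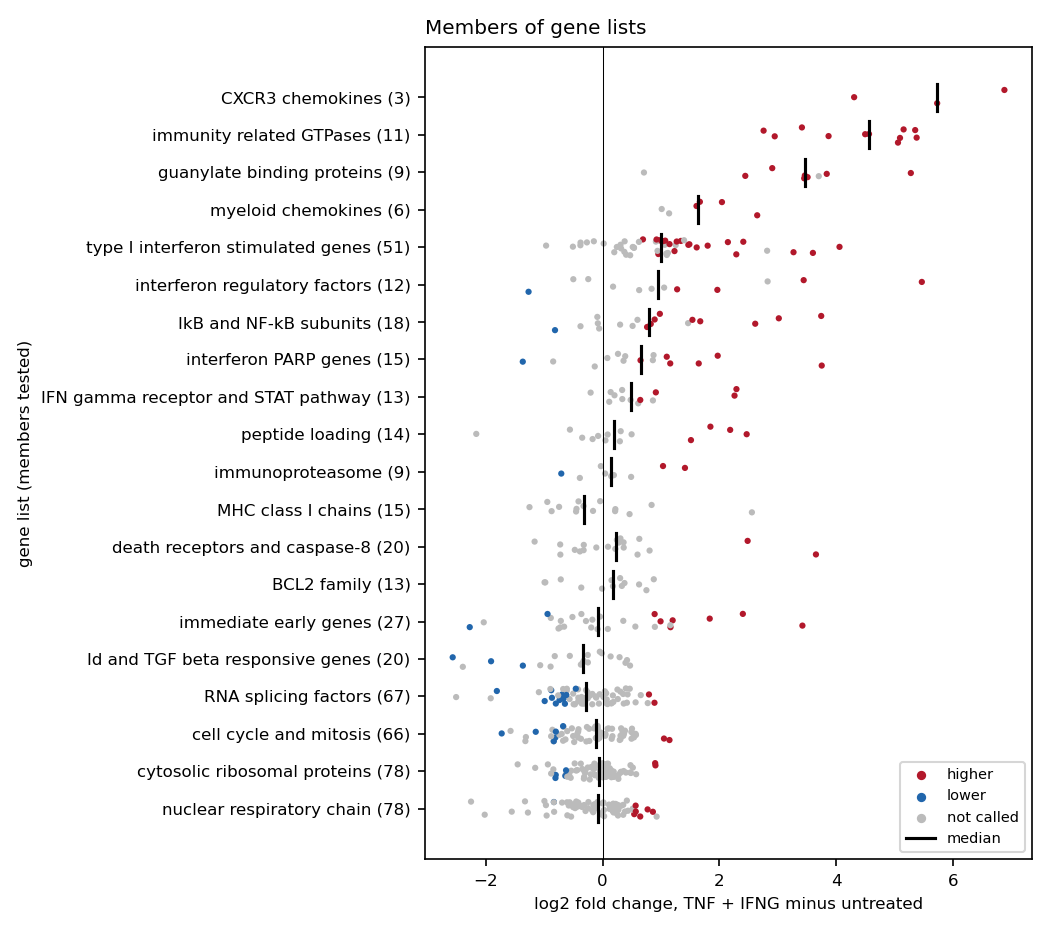
Log2 fold change of TNF + IFNG over untreated (x axis) for the members tested of 20 gene lists (y axis, number of members in brackets). Each point is a gene, red where higher, blue where lower and grey where the test was not passed, and the black bar is the list's median, which runs from 5.73 for the CXCR3 chemokines to -0.33 for the Id and TGF beta responsive genes.

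Surface molecules that meet T cells rose in part. Cd274, the gene of the PD1 ligand PD-L1, rose from 1.01 and 1.69 to 4.53 and 4.80 (3.31 ± 0.38, adjusted p = 0.00296) and was stable. Cd47, a signal against uptake by macrophages, rose by 0.88 ± 0.16 (adjusted p = 0.0197) but was lost without either untreated or the second TNF + IFNG library (up to 0.126). Vcam1, a ligand for T cell integrins, rose from 6.35 and 6.25 to 8.21 and 7.64 (1.63 ± 0.20, adjusted p = 0.00428), with 8.22 and 8.15 under TNF alone. Icam1, another integrin ligand, was on the lowest value steps in untreated cells, at -3.44 and -3.60, and at 1.31 and 1.22 with both cytokines (adjusted p = 0.0271). Icam1 was lost without any untreated or TNF + IFNG library (up to 0.156). Further stable rises, named after their values were seen, were Slamf8 (3.44 ± 0.35), the lectin gene Clec2d (3.41 ± 0.40) and the interleukin 4 receptor gene Il4ra (2.23 ± 0.19, from 4.08 and 3.64 to 6.24 and 5.94).

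Of 16 adhesion molecules 3 rose, Vcam1, Icam1 and the E-selectin gene Sele, and 3 fell, Nectin1, Jam3 and Cd9 (median 0.12). Of all genes 4.77% rose and 4.25% fell, and in this list 1 rise and no fall was stable. Nectin1, an adhesion molecule of cell junctions, stood at 3.13 and 3.73 untreated, 3.08 and 2.81 with TNF, 3.19 and 3.06 with IFNG and 1.11 and 0.30 with both, so that both treated libraries lay below all others of these 8. The change from untreated was -2.73 ± 0.36 (adjusted p = 0.00671), and it was lost without the second untreated library (0.0679). Nectin1 was also lower than with TNF alone (-2.24, adjusted p = 0.043) and with IFNG alone (-2.42, adjusted p = 0.041). Those 2 differences were lost without either untreated, TNF or IFNG library or the second TNF + IFNG library (up to 0.268 and 0.302). Jam3, a junctional adhesion molecule, fell from 2.73 and 2.88 to 0.52 and 1.38 (-1.85 ± 0.40, adjusted p = 0.0329), and the tetraspanin gene Cd9 from 5.35 and 5.66 to 3.51 and 3.95 (-1.77 ± 0.39, adjusted p = 0.0332). Jam3 was lost without either untreated or IFNG library or the first TNF + IFNG library (up to 0.189), and Cd9 and Sele (2.92 ± 0.72, adjusted p = 0.043) without any 1 library of the untreated and cytokine groups (up to 0.198 and 0.206).

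Of 20 death receptor and caspase-8 genes 2 rose and none fell (median 0.23), beside rises in 4.77% of all genes. They were the receptor gene Fas, which went from 0.21 and 0.77 to 2.75 and 3.20, and the TRAIL gene Tnfsf10, whose untreated libraries lay on the lowest steps. Fas (2.48 ± 0.40, adjusted p = 0.0146) was lost without either untreated or the second TNF + IFNG library (up to 0.0838). Tnfsf10 (3.65 ± 0.74, adjusted p = 0.0277) was lost without any untreated, IFNG or TNF + IFNG library (up to 0.17). Casp8 stood at 3.61 and 3.31 and at 3.78 and 3.87, and the TNF receptor gene Tnfrsf1a at 6.54 and 6.42 and at 6.40 and 6.50 (adjusted p = 0.268 and 0.903). None of 13 BCL2 family genes passed, where 9.02% of all genes did, and 13 genes are too few to set apart from that share. Bcl2l1 stood at 5.16 and 5.15 and at 5.61 and 5.36, and Mcl1 at 6.73 and 7.00 and at 5.99 and 6.31.

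Antiviral and other interferon-stimulated genes rose without any fall in their list: 21 of 51 rose, with a median of 1.01. Over all genes 4.77% rose and 4.25% fell. The stable members were Apol6 (4.05 ± 0.45), Slfn2 (3.60 ± 0.21), Rtp4 (2.14 ± 0.23) and Rsad2, the gene of the antiviral enzyme viperin (from 5.73 and 5.51 to 7.12 and 7.06, 1.47 ± 0.15, adjusted p = 0.00183). The list had 7 and 4 rises when untreated library 1 or 2 was dropped, and 13 and 10 when TNF + IFNG library 1 or 2 was. Isg15, a ubiquitin-like protein of the type I response, stood at 5.79 and 5.90 and at 5.59 and 5.56, and Ifit1 at 2.37 and 2.97 and at 3.03 and 2.80 (adjusted p = 0.241 and 0.593). Slfn2, a regulator of cell growth, stood at 2.00 and 2.25 untreated, 4.95 and 5.07 with TNF, 3.25 and 3.28 with IFNG and 5.96 and 5.49 with both. Ubd, the gene of the ubiquitin-like tag FAT10, stood at -0.27 and -1.18 untreated, -0.16 and -0.44 with TNF, 0.61 and 0.55 with IFNG and 3.22 and 3.49 with both (4.08 ± 0.46, adjusted p = 0.00296). Both TNF + IFNG libraries were the highest of these 8 for Slfn2 and for Ubd.

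Of 15 interferon-responsive PARP genes, which attach ADP-ribose to proteins, 6 rose and 1 fell, where 4.77% of all genes rose and 4.25% fell. The fall was Tiparp (-1.36 ± 0.28, adjusted p = 0.028), a target of the aryl hydrocarbon receptor. Tiparp was lost without any 1 untreated, IFNG or TNF + IFNG library (up to 0.185). Parp14 rose from 2.93 and 2.53 to 6.50 and 6.46 (3.75 ± 0.22, adjusted p = 6.43e-05), with 4.49 and 5.13 under TNF and 5.72 and 5.73 under IFNG. Parp9 rose from 3.06 and 3.33 to 4.84 and 5.49 (1.97 ± 0.23, adjusted p = 0.00309). Its partner ligase Dtx3l rose by 1.65 ± 0.22 (adjusted p = 0.00778) but was lost without either untreated library (up to 0.062). Irak2, a kinase of Toll-like receptor signalling, rose from 0.66 and 0.99 to 3.81 and 3.11 (2.64 ± 0.28, adjusted p = 0.00218) and stood at 3.90 and 3.85 with IFNG alone.

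Stable rises outside these lists included genes of varied roles, of which Rnf19b, Cyp26b1, Dlc1 and Hivep1 were named after their values were seen. Inhba, which encodes an activin subunit, rose from 5.09 and 4.78 to 6.92 and 6.80 (1.92 ± 0.19, adjusted p = 0.00121). The vesicle fusion gene Stx11 rose from 3.09 and 2.96 to 5.23 and 5.30 (2.24 ± 0.17, adjusted p = 0.000259), and the ubiquitin ligase gene Rnf19b from 5.49 and 5.43 to 7.94 and 7.66 (2.34 ± 0.17, adjusted p = 0.000169). Cyp26b1, an enzyme that breaks down retinoic acid, rose from 4.29 and 3.86 to 6.02 and 5.76 (1.81 ± 0.20, adjusted p = 0.00238). Dlc1 rose by 2.06 ± 0.25 and the zinc finger gene Hivep1 by 1.57 ± 0.17 (adjusted p = 0.00439 and 0.00207).

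The 3 stable falls were Ier5l, Osr1 and Prr14. Ier5l, a member of the immediate early response 5 family (chromosome 2, 30471537 to 30474219, minus strand, GRCm38), stood at 5.13 and 5.51 untreated, 3.54 and 3.41 with TNF, 4.57 and 4.65 with IFNG and 3.08 and 3.01 with both (-2.27 ± 0.19, adjusted p = 0.000408). Osr1, a zinc finger factor of mesenchymal development (chromosome 12, 9570116 to 9581500, plus strand), stood at 6.44 and 6.51 untreated, 5.56 and 5.55 with TNF, 6.01 and 5.86 with IFNG and 4.96 and 4.61 with both (-1.69 ± 0.15, adjusted p = 0.000789). Prr14, which tethers heterochromatin to the nuclear lamina (chromosome 7, 127459611 to 127476759, plus strand), stood at 4.49 and 4.63 untreated and at 3.18 and 3.11 with both (-1.42 ± 0.16, adjusted p = 0.00325). In each the 2 TNF + IFNG libraries were the lowest of the 8 libraries of the untreated, TNF, IFNG and TNF + IFNG groups. Prr14 overlaps B130055M24Rik on the same strand.

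Id genes, inhibitors of helix-loop-helix factors that respond to BMP and TGF beta, were the 3 falls among 20 genes of their list. Of all genes 4.25% fell. Id2 fell from 5.79 and 5.94 to 4.57 and 4.42 (-1.36 ± 0.17, adjusted p = 0.00435), with 4.47 and 4.29 under TNF and 6.00 and 6.03 under IFNG. Id1 fell by 1.91 on the log2 scale (SE 0.31, adjusted p = 0.0149) and Id3 by 2.56 (SE 0.55, adjusted p = 0.032). Id2 was lost without the second untreated library (0.0561), Id1 without that or the second TNF + IFNG library (up to 0.126), and Id3 without either untreated or IFNG library or the first TNF + IFNG library (up to 0.19).

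Other lists with more falls than rises were less stable. Of 67 RNA splicing factors 11 fell and 2 rose, with a median of -0.28, where 4.25% of all genes fell and 4.77% rose. Hnrnpf, an RNA-binding splicing regulator, stood at 9.88 and 10.29 untreated, 9.80 and 9.43 with TNF, 9.18 and 9.20 with IFNG and 7.95 and 8.61 with both (-1.81 ± 0.31, adjusted p = 0.0188). The 11 falls became 4 when the libraries were centred on ribosomal protein genes and 0 without either untreated library, and they numbered 4 and 2 when TNF + IFNG library 1 or 2 was dropped. Beside the same shares of all genes, 6 of 66 cell cycle genes fell and 2 rose (median -0.11), among them Ccna2, the gene of cyclin A2 (6.21 and 6.14 to 5.37 and 5.37), and the rise of the cell cycle inhibitor gene Cdkn1a (4.45 and 4.53 to 5.59 and 5.50). The largest rise of this list was that of Mybl2 (1.15 in log2, adjusted p = 0.0342), and none of its calls was stable. Of 31 lysosomal genes 4 fell and none rose, with the protease gene Ctsl at 8.08 and 8.43 untreated and 7.26 and 6.78 treated. Hnrnpf and Cdkn1a were lost without either untreated library (adjusted p up to 0.148 and 0.0673). Ctsl and Ccna2 were lost without either untreated or the second TNF + IFNG library, Ccna2 also without either IFNG library (up to 0.136 and 0.147). Neither list of falls kept a member without an untreated library: the cell cycle and the lysosomal list had 0 falls in each of those 2 fits.

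The calls of other large groups are given beside rises in 4.77% and falls in 4.25% of all genes. Cytosolic ribosomal protein genes had 2 rises and 4 falls among 78 (median -0.06), nuclear respiratory chain genes 6 rises and 1 fall among 78 (-0.08) and mitochondrial ribosomal protein genes 4 rises and 2 falls among 77 (0.08). The medians of the first 2 turned to 0.06 and 0.04 with ribosomal centring. For the cytosolic ribosomal genes this value says nothing, since the centring makes their mean about equal in every library. Zinc finger Zfp genes had 5 rises and 10 falls among 273 (0.04), and solute carriers 7 rises and 4 falls among 168 (-0.17).

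**Figure D4:**
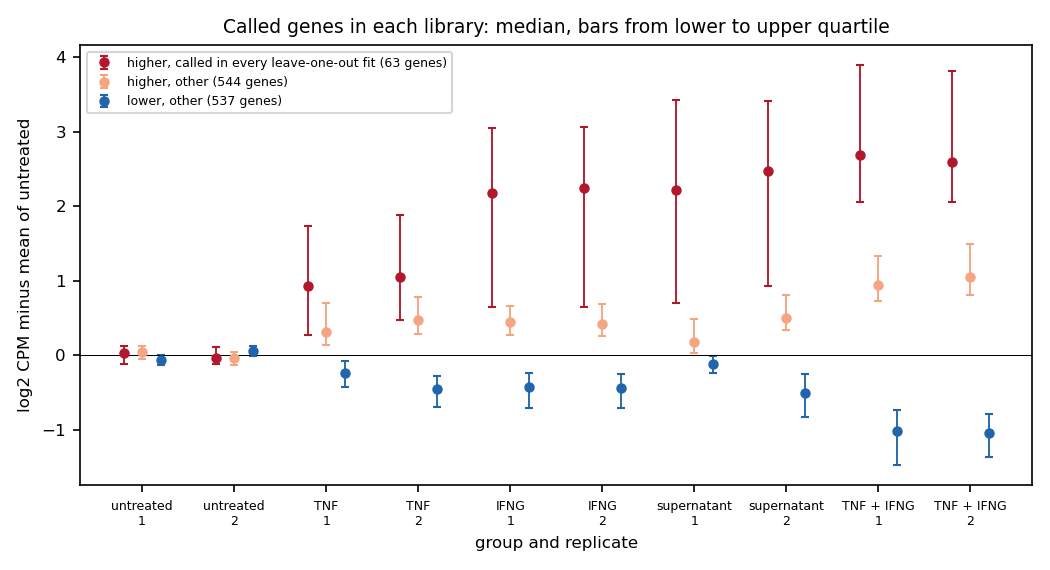
Median difference of each library from the mean of the untreated libraries (y axis, log2 CPM) over the stable rises and the other called rises and falls, for the 10 libraries by group and replicate (x axis). Bars run from the lower to the upper quartile of the genes, and the untreated and TNF + IFNG values were used to choose these genes.

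The called genes were followed through all 10 libraries as a description, since the calls used the untreated and TNF + IFNG libraries. Measured from the untreated mean, the 63 stable rises had medians of 2.69 and 2.59 in the TNF + IFNG libraries, 2.18 and 2.24 with IFNG alone and 0.93 and 1.05 with TNF alone. The 540 falls had medians of -1.02 and -1.04 in the TNF + IFNG libraries, -0.43 and -0.44 with IFNG and -0.23 and -0.46 with TNF. In the supernatant libraries those medians were 2.22 and 2.48 for the stable rises and -0.11 and -0.50 for the falls. All these values share the untreated libraries as their reference.

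A direct comparison asked where both cytokines differed from each alone, with the TNF + IFNG libraries shared by both contrasts. Against TNF alone 50 genes were higher (0.393% of genes tested) and 3 lower (0.0236%), and 26 and 0 of them passed in all 10 fits that leave out a library. Against IFNG alone 25 were higher (0.197%) and 5 lower (0.0393%), and 6 and 0 passed in all 10. Without the first TNF + IFNG library the balance turned, to 104 higher and 152 lower against TNF alone and 93 higher and 177 lower against IFNG alone. The 6 that passed in all fits against IFNG alone were Cxcl9, Nfkbia, Nfkbie, Slfn2, Ccl5 and Ier3. Nfkbia lay 3.17 above IFNG alone (adjusted p = 6.2e-05) and 0.38 below TNF alone, a difference that did not pass (adjusted p = 0.246). Iigp1 lay 6.74 above TNF alone (adjusted p = 4.47e-05), and its difference from IFNG alone was -0.36 (adjusted p = 0.69).

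Cxcl9 lay 6.41 above TNF alone (adjusted p = 8.22e-06) and 3.47 above IFNG alone (adjusted p = 0.000792), and both passed in all 10 fits. Cxcl11 lay 4.87 above TNF alone (adjusted p = 0.00279) and 4.09 above IFNG alone (adjusted p = 0.0164), the latter lost without either IFNG library (up to 0.136). Cxcl10 lay 2.13 above TNF alone (adjusted p = 0.0105), lost without either TNF or the second TNF + IFNG library (up to 0.115), and 1.65 above IFNG alone (adjusted p = 0.0675). Ubd lay 3.66 above TNF alone (adjusted p = 0.0125), lost without the same 3 libraries (up to 0.115), and 2.78 above IFNG alone (adjusted p = 0.0811). Irf1 lay 0.98 above TNF alone (adjusted p = 0.00983), lost without the second TNF or the second TNF + IFNG library (up to 0.115), and 0.39 above IFNG alone (adjusted p = 0.268). Whether the effect of the pair differs from the sum of the single effects was not part of these tests.

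**Figure D5:**
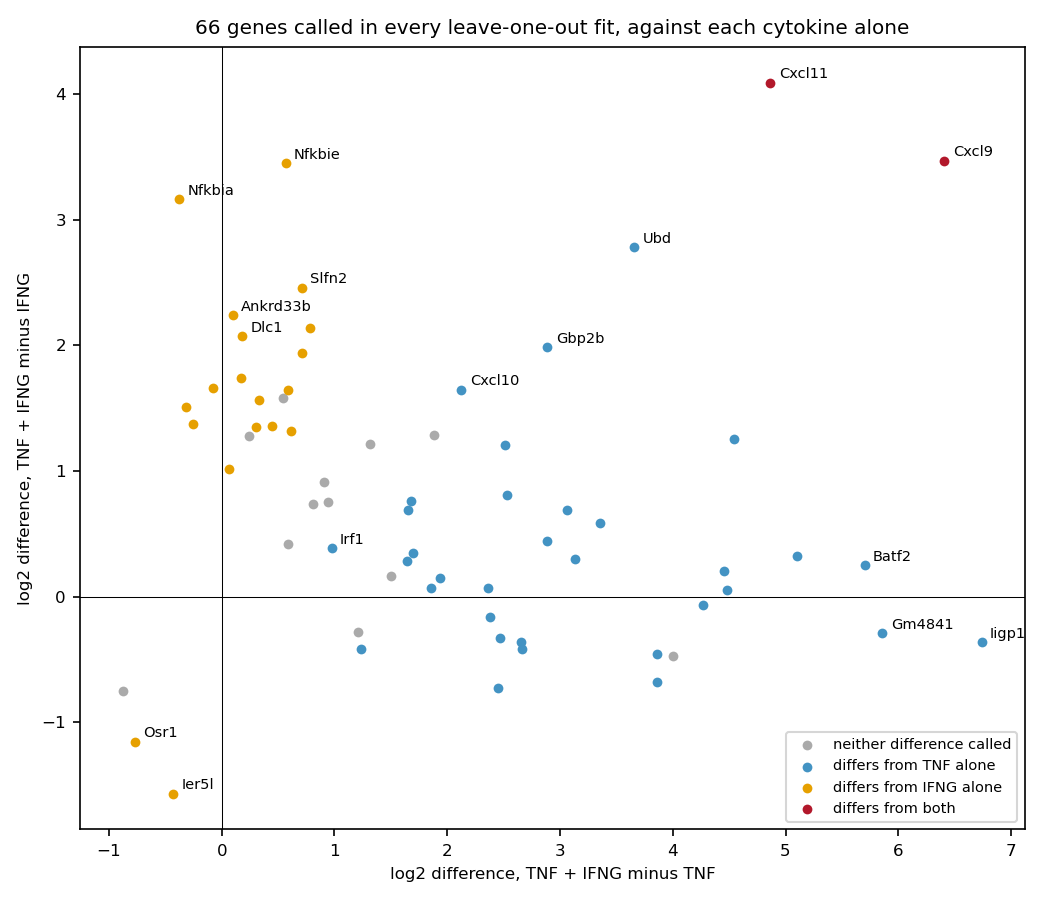
Log2 difference of TNF + IFNG from TNF alone (x axis) and from IFNG alone (y axis) for the 66 stable genes, coloured by which difference passed. Iigp1, Gm4841 and Batf2 lie far right near 0 on the y axis, Nfkbia and Nfkbie high near 0 on the x axis, and Cxcl9 and Cxcl11 far from 0 on both.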

How the data were processed

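Total RNA of MC38 cells was made into QuantSeq 3' mRNA libraries, per the labels' protocols. Tools in the submitters' processing notes are limma, featureCounts, Subread, HISAT2, cutadapt 1.7 and FastQC, with the builds GRCm38 and mm10 and no order or settings. The authors deposited log2 CPM values per gene. Their unit was read from the values, whose linear sums lie between 998481 and 998505, and the shared maximum of 16.059 is what quantile normalization leaves. A shift common to most transcripts cannot be seen in such values. Depth was estimated from the number of distinct low values.

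All 10 in vitro libraries were fitted with limma 3.58.1 in R 4.3.3 (group means, intensity trend, 2-sided tests, 5 residual and 3.735 prior degrees of freedom). Genes at log2 0 or more in at least 2 libraries were kept, and 12720 of 12721 were tested, of which 15 with date-like names are not named. The median half-width of a 95% confidence interval was 0.59 in log2. The fit was tested on simulated data.

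Genes were named by rule: the 20 largest rises and falls, the 20 largest that passed without each compared library, and in each of 55 gene lists the first 4 members and 6 largest calls. Stable genes outside it are said to be named after their values were seen. The comparison, lists and motifs were chosen with earlier results of these data known. Lists are described by counts and medians. Coordinates are from GENCODE M21 (GRCm38) and promoters from RefSeq GRCm38.p6. The co-culture table was not used. Alternatives were other fits, filters, pseudocounts of 1 and 4, centring, a replicate block and leaving out each library. Some results are not reported here.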

Additional observations from a re-analysis of the deposited data

How the results depend on the processing

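Against untreated, 1147 genes passed in the fit reported. The count was 145 with only the compared groups fitted, 467 with no intensity trend, 656 with library weights and 594 with a replicate block. Not every stable gene passed with only the compared groups fitted. Nlrc5, Gadd45b and Gm12250 were among those that did not (limma, adjusted p = 0.0653, 0.0522 and 0.0547). Leaving out 1 library gave 88 to 2155. For changes of at least 2-fold (623) it was 145 with only the compared groups fitted, 388 with no intensity trend and 333 with a pseudocount of 4, and 87 to 883 without 1 library. Against TNF (53) it was 16 with only the compared groups fitted and 37 to 256 without 1 library, the highest without the first TNF + IFNG library. Against IFNG (30) it was 3 with only the compared groups fitted, 19 with a replicate block and 12 to 270 without 1 library, again highest without the first TNF + IFNG library. The fit of compared groups had 2 residual degrees of freedom and each fit without a library 4, against 5, and the cause of the changes was not tested. The other alternatives kept the counts within 1.5 times, among them robust fitting (1420), a stricter filter (1289), a pseudocount of 1 (1210), library medians (1152) and ribosomal centring (969). None of the named genes that passed changed direction, though the fits without a library could not have shown such a change. Deviations of same-numbered libraries correlated between -0.287 and 0.0941, so the numbers were not taken as pairs.

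With 2 libraries a group and 3360000 reads in the second TNF + IFNG library, changes of genes on the lowest value steps, such as Batf2 and Icam1, have no firm size. The labels give no doses, and do not say if reads were counted by strand.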

Other observations

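Several of the largest values outside the stable genes belonged to pseudogenes and non-coding RNAs, which 3' reads can share with a parent gene. Rn7s2, a copy of the signal recognition particle RNA, stood at -1.30 and -0.87 untreated, -1.30 and 3.94 with TNF, 6.38 and 5.18 with IFNG and 6.22 and 6.55 with both, so that the TNF libraries differed between themselves. Its rise with both cytokines (adjusted p = 0.0202, limma) was lost without either untreated or the second TNF + IFNG library (up to 0.126). Bnip3l-ps, a processed pseudogene of the mitophagy receptor gene Bnip3l, stood at 5.71 and 5.69 untreated, 3.28 and 1.49 with TNF, 1.11 and 2.00 with IFNG and 1.49 and 1.83 with both. The pseudogene Gm6061, which overlaps the glutathione synthesis gene Gclm, stood at 7.42 and 7.63 untreated and at 3.40 and 4.85 with both. Bnip3l-ps fell by 4.04 on the log2 scale (adjusted p = 0.0174) and Gm6061 by 3.40 (adjusted p = 0.0238). Bnip3l-ps was lost without either untreated or the second TNF + IFNG library (up to 0.126), and Gm6061 without either untreated or the first TNF + IFNG library (up to 0.157). The entries Gm20236 and Gm37094 held the same value in each of the 8 libraries of the untreated and cytokine groups.

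Genes of secretory protein folding and stress included falls. Ddit4, a stress-induced inhibitor of mTORC1, stood at 5.85 and 5.64 untreated, 4.72 and 4.73 with TNF, 4.97 and 5.74 with IFNG and 3.98 and 4.16 with both. Pdia6, a disulfide isomerase of the endoplasmic reticulum, fell from 8.88 and 8.93 to 8.15 and 7.87 (-0.90 ± 0.14, adjusted p = 0.0118, limma). Both were lost without either untreated library (up to 0.0718 and 0.11). In the list of ATF4 and unfolded protein response genes 4 of 31 fell and 1 rose, with a median of 0.02. Of all genes 4.25% fell and 4.77% rose, and no call of this list was stable.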
